A study of Mus musculus with 64 samples.

Results

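The genes described here carry out glycolysis, steps of gluconeogenesis and the malate-aspartate shuttle, together with lactate dehydrogenase, sugar and lactate carriers and the enzymes that set fructose 2,6-bisphosphate. They were taken from the table of counts by a fixed list of 35 gene symbols. These matched 36 of the 55401 rows, because the symbol Aldoa stands for 2 rows, the main gene and a short row of few reads just upstream of it. All 36 rows had enough reads to be tested among the 18971 rows tested in all, and between 1.04% and 1.36% of the counts of a prefrontal cortex (PFC) library and between 1.10% and 1.78% of those of a hypothalamus library fell on them.

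Bulk RNA sequencing was performed on 64 samples from 32 male C57BL/6J mice, which were 10 weeks old at treatment, fed chow and housed in groups. Each mouse received a single intraperitoneal injection of either psilocybin at 3 mg/kg or isotonic saline (vehicle), and was killed 3 h or 4 weeks later. Whole hypothalamus and PFC, which the labels call frontal cortex, were taken from every mouse, giving 8 groups of 8 samples, each sample from 1 mouse. The mice were housed in 8 cages of 4, with 1 mouse of each treatment and time in a cage, and RNA was extracted in 4 pools, of which A and B held the hypothalamus and C and D the PFC. Mice killed at 4 weeks were also older at harvest, so time since the injection and age cannot be told apart.

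Glycolysis splits glucose into pyruvate in the cytosol. Its early steps are catalysed by hexokinase, phosphofructokinase and aldolase, and its later steps, from glyceraldehyde-3-phosphate dehydrogenase to pyruvate kinase, yield ATP and NADH. Lactate dehydrogenase converts pyruvate and lactate into each other, and the malate-aspartate shuttle carries the reducing power of cytosolic NADH into the mitochondrion. In brain, astrocytes are known for high glycolytic activity and for release of lactate, while neurons rely on the shuttle for oxidation of glucose.

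Promoters are shown for 4 of the genes that the results below turn on, Ldha, G6pc3 and Slc25a13, which differed between the regions, and Pfkfb3, which differed between the times. Each is the 250 bases before a transcription start annotated by RefSeq on GRCm38.p6, written 5′ to 3′ on the gene's strand. Capitals mark ACGTG on either strand, the core letters of sites bound by hypoxia-inducible factors, and CACGTG, the E-box that carries this core on both strands.
Ldha, chr7:46845554-46845803, plus strand: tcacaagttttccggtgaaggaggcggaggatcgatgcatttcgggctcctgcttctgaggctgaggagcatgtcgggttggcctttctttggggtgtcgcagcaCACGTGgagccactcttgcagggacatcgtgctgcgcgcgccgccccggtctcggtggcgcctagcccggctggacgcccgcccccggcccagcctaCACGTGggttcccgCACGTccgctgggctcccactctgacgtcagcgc
G6pc3, chr11:102189449-102189698, plus strand: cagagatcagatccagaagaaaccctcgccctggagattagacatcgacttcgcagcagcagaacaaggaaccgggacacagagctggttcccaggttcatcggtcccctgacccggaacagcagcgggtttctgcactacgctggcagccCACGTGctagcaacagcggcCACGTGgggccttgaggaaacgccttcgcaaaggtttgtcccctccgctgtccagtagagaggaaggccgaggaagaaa
Slc25a13, chr6:6217174-6217423, minus strand: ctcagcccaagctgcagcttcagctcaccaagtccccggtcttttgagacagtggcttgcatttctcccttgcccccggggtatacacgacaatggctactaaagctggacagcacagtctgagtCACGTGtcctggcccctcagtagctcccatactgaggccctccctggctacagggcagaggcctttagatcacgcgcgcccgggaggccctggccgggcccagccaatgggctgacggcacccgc
Pfkfb3, chr2:11553930-11554179, minus strand: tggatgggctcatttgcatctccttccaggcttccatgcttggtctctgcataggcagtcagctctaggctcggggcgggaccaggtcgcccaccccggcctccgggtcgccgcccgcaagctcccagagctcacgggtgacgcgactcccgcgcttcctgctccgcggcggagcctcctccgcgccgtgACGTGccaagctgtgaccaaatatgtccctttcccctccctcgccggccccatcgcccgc
The Ldha window holds 3 places with these letters, the G6pc3 window 2, and the Slc25a13 and Pfkfb3 windows 1 each. The start that the Ldha window precedes lies 4329 bases from the start of the gene in the deposited table, against 55 to 148 bases for the other 3 genes. Promoters were matched for 33 of the 35 symbols, Slc2a3 and Slc16a7 having none in the table used. At least 1 ACGTG on either strand was found in 11 of the 33 (33.3%) and in 5444 of all 32851 promoters (16.6%), and CACGTG in 6 of the 33 (18.2%) and in 6.02% of all promoters. The members with ACGTG are Hk2, Pgam1, Slc25a13, Mdh1, Pcx, Pfkfb3, Slc16a1, Pfkm, G6pc3, Pgk1 and Ldha. All 4 windows shown hold these letters, so they do not stand for the 33. The windows of Pfkp and Slc25a12, whose libraries did not overlap between the regions, hold 0 places and are not shown. These matches describe the letters of the windows only.

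In the 62 libraries analysed, total counts ranged from 8061033 to 70361839 (median 18287978.5). The other 2, the hypothalamus of vehicle mouse 2 at 3 h and the PFC of psilocybin mouse 3 at 4 weeks, held 211111 and 200066 counts and were left out. Tissue labels were checked against marker genes. The summed counts per 1000000 (CPM) of 5 cortical excitatory markers were 1308 to 1912 in PFC and 21.8 to 121 in hypothalamus libraries, and those of 8 hypothalamic markers were 1.64 to 13.5 and 357 to 2767. Psilocybin replicate 5 of the hypothalamus at 4 weeks stood apart, and so, less far, did psilocybin replicate 7 of the PFC at 3 h. In 5 libraries, listed with Slc25a13 below, genes of liver and kidney summed to over 400 CPM. Results that rest on these libraries are also given without them. The 7 wound and immune genes summed to 210 CPM in vehicle replicate 6 of the hypothalamus at 4 weeks and to at most 105 CPM in the other hypothalamus libraries. Without that library 27 members were called between the regions and 0 in the hypothalamus comparisons that hold it, the same counts as with it. In the PFC these genes summed to 129 CPM in psilocybin replicate 5 at 3 h (group median 49.9). The next highest sum was 97.9 CPM in vehicle replicate 7 at 3 h (group median 54.2). With either left out 0 members were called for psilocybin in the PFC at 3 h.

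The genes spanned a wide range of levels. Counts divided by gene length and scaled to 1000000 transcripts per library (TPM) were highest for the aldolase gene Aldoa, at 1999 ± 258 TPM (SD, n = 31) in the PFC and 1855 ± 110 TPM (SD, n = 31) in the hypothalamus. Aldoc, the aldolase of astrocytes, came next with 1446 ± 292 and 1462 ± 120 TPM. Mdh1, the cytosolic malate dehydrogenase, had 1057 ± 115 and 1155 ± 53.2 TPM, and Ldhb, the lactate dehydrogenase subunit known from oxidative tissues, 1014 ± 114 and 939 ± 99.4 TPM. These 4 held the top 4 ranks in the same order in both regions, although Mdh1 and Ldhb differed by less than their SDs in the PFC. At the lower end stood Hk2, the hexokinase of muscle and fat, with 4.22 ± 0.849 TPM in the PFC and 3.63 ± 0.574 TPM in the hypothalamus. Slc25a13, a mitochondrial aspartate-glutamate carrier also called citrin, had 2.15 ± 0.860 TPM in the PFC, the lowest of the 36 rows there, and 7.17 ± 3.87 TPM in the hypothalamus. Its paralog Slc25a12, also called aralar, the carrier known from neurons, had 76.3 ± 10.02 and 115 ± 13.1 TPM.

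The PFC and the hypothalamus were compared over all groups, as the mean of the 4 PFC groups minus the mean of the 4 hypothalamus groups. Steps of early glycolysis and lactate dehydrogenase were higher in the PFC, whereas the 3 members grouped under gluconeogenesis and 3 carriers of the malate-aspartate shuttle were lower. By the quasi-likelihood test of edgeR, adjusted after Benjamini and Hochberg over all rows tested, 27 of the 36 rows passed an adjusted p of 0.05, 17 higher and 10 lower in the PFC. Of all rows tested 76.2% passed, 39.6% higher and 36.5% lower, so the share of the 36 that passed is near that of all genes. The median log2 difference of the 36 was 0.11, against 0.02 for all rows. Without the 2 libraries that stood apart 30 rows passed, and without the 5 with liver and kidney genes 28, where 79.8% and 75.9% of all rows did. The regions also differed in marker genes of several cell types, summed in CPM. Neuronal markers (6 genes) summed to 4804 to 8057 in the PFC and 2904 to 3822 in the hypothalamus, where 4 of the 6 were higher in the PFC (Snap25, Syt1, Rbfox3 and Nefl), Tubb3 was lower and Stmn2 did not pass. Endothelial markers (5 genes, all higher in the PFC) summed to 161 to 256 and 73.8 to 184, and microglial markers (6 genes, all higher) to 346 to 681 and 216 to 416. All 7 oligodendrocyte markers were lower, with sums of 2352 to 6906 and 6181 to 11178. Astrocyte markers (7 genes) summed to 4763 to 9195 and 2529 to 4802, but did not move together. Of the 7, 2 glutamate transporters were higher in the PFC (Slc1a2, 1.35, and Slc1a3, 0.41, the most abundant of the list) and 2 lower (Gfap, -0.83, and Gja1, -0.25), and the median log2 difference was -0.11. Their part in the differences was not tested, and in bulk tissue fewer cells of a type cannot be told apart from less RNA per cell.

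**Figure D1:**
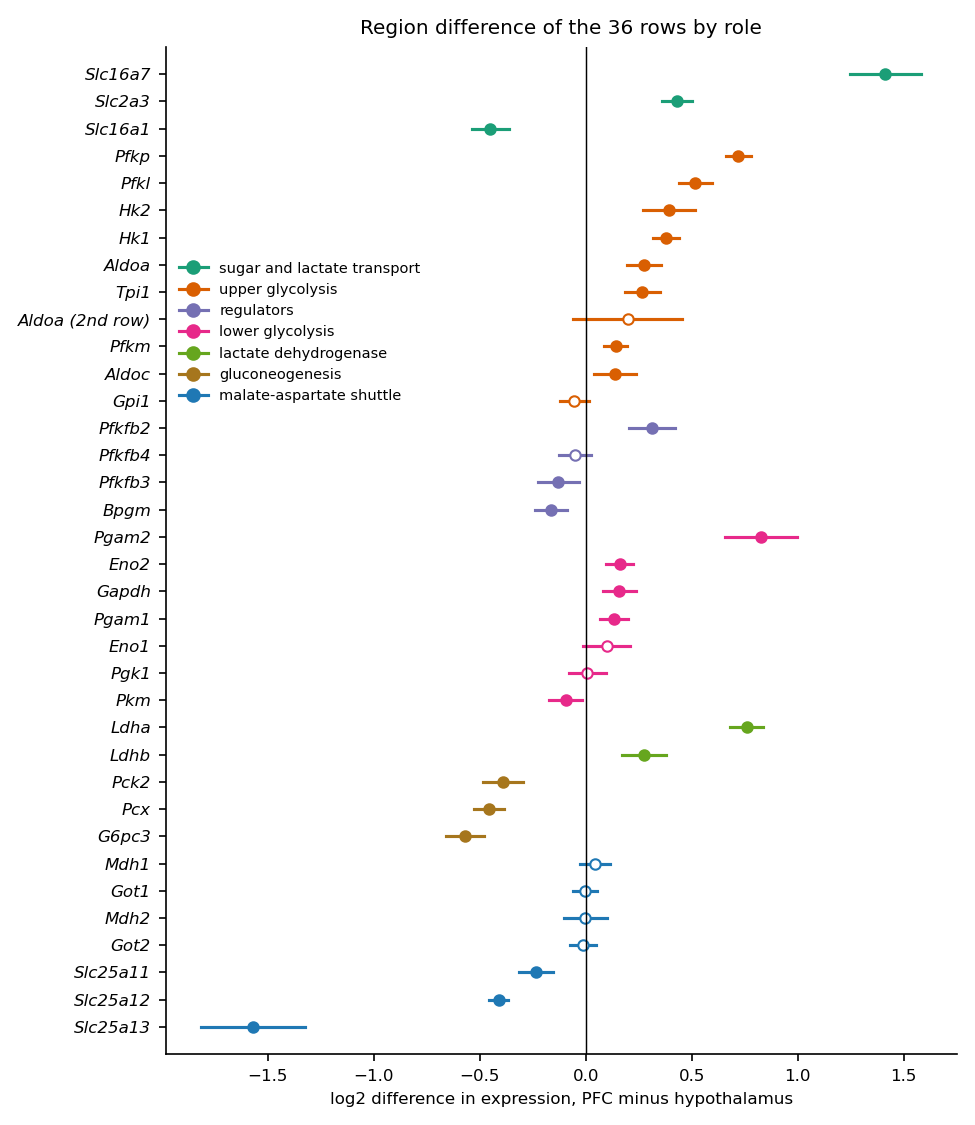
Log2 difference in expression between PFC and hypothalamus (x axis) for each of the 36 rows (y axis), grouped by role. Points are edgeR estimates with 95% confidence intervals, filled where the adjusted p was under 0.05. Upper glycolysis lies at or right of 0 apart from Gpi1, the 3 genes of gluconeogenesis lie left of 0, and Slc16a7 (1.41) and Slc25a13 (-1.57) mark the ends.

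Among sugar and lactate carriers, all 3 genes differed, in opposite directions, where 76.2% of all rows passed. Slc16a7, which encodes MCT2, the neuronal importer of lactate and pyruvate (chr10:125219270-125389465, minus strand), ranged from 27.2 to 86.7 CPM in the PFC (median 53.3) and from 7.70 to 23.8 CPM in the hypothalamus (median 20.4). No hypothalamus library reached the lowest PFC library. The log2 difference was 1.41 (SE 0.0841), or 2.66-fold, with an edgeR adjusted p of 7.05e-23. Slc2a3, the neuronal glucose transporter GLUT3, was higher by 0.43 (SE 0.0353, adjusted p = 5.54e-17), with 121 to 214 CPM in the PFC (median 161) and 74.0 to 146 CPM in the hypothalamus (median 119). The libraries of the regions overlapped for Slc2a3, but within each of the 30 mice with both libraries the PFC was higher. Slc16a1, which encodes MCT1, the lactate carrier of endothelium and oligodendrocytes, was lower in the PFC by -0.45 (SE 0.0428, adjusted p = 1.77e-14), with 28.3 to 47.7 CPM (median 37.8) against 41.6 to 68.0 CPM (median 53.3), and was lower in 30 of 30 mice. Of the marker genes of these cell types, given above, those of endothelium were higher in the PFC and those of oligodendrocytes lower.

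Of the 10 rows of upper glycolysis, 8 were higher in the PFC and 0 lower, beside the 39.6% and 36.5% of all rows. The share called is near the 76.2% of all rows, and the direction within the role was not tested. Pfkp, the platelet-type phosphofructokinase subunit (chr13:6579768-6648777, minus strand), ranged from 319 to 452 CPM in the PFC (median 375) and from 196 to 277 CPM in the hypothalamus (median 226). The ranges did not touch, and the log2 difference was 0.72 (SE 0.0295, edgeR adjusted p = 5.32e-31). The liver-type subunit Pfkl was higher by 0.52 (SE 0.0387), with medians of 196 and 134 CPM, and the muscle-type subunit Pfkm by 0.14 (SE 0.0262), with medians of 476 and 432 CPM. The 3 phosphofructokinase genes thus differed between the regions by unequal amounts. Hk1, the main brain hexokinase, was higher by 0.38 (SE 0.0314) with 341 to 481 CPM (median 407) against 260 to 353 CPM (median 311), and in 30 of 30 mice. Hk2 (0.39), Aldoa (0.27), Tpi1 (0.27) and Aldoc (0.14) were also higher. The Aldoc call was lost with DESeq2-type size factors (adjusted p = 0.0760), with DESeq2 (0.0762), without the filter on low counts (0.169) and without vehicle replicate 3 of the PFC at 4 weeks (0.0663). Gpi1, glucose-6-phosphate isomerase (-0.05), and the short Aldoa row (0.20) did not pass.

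**Figure D2:**
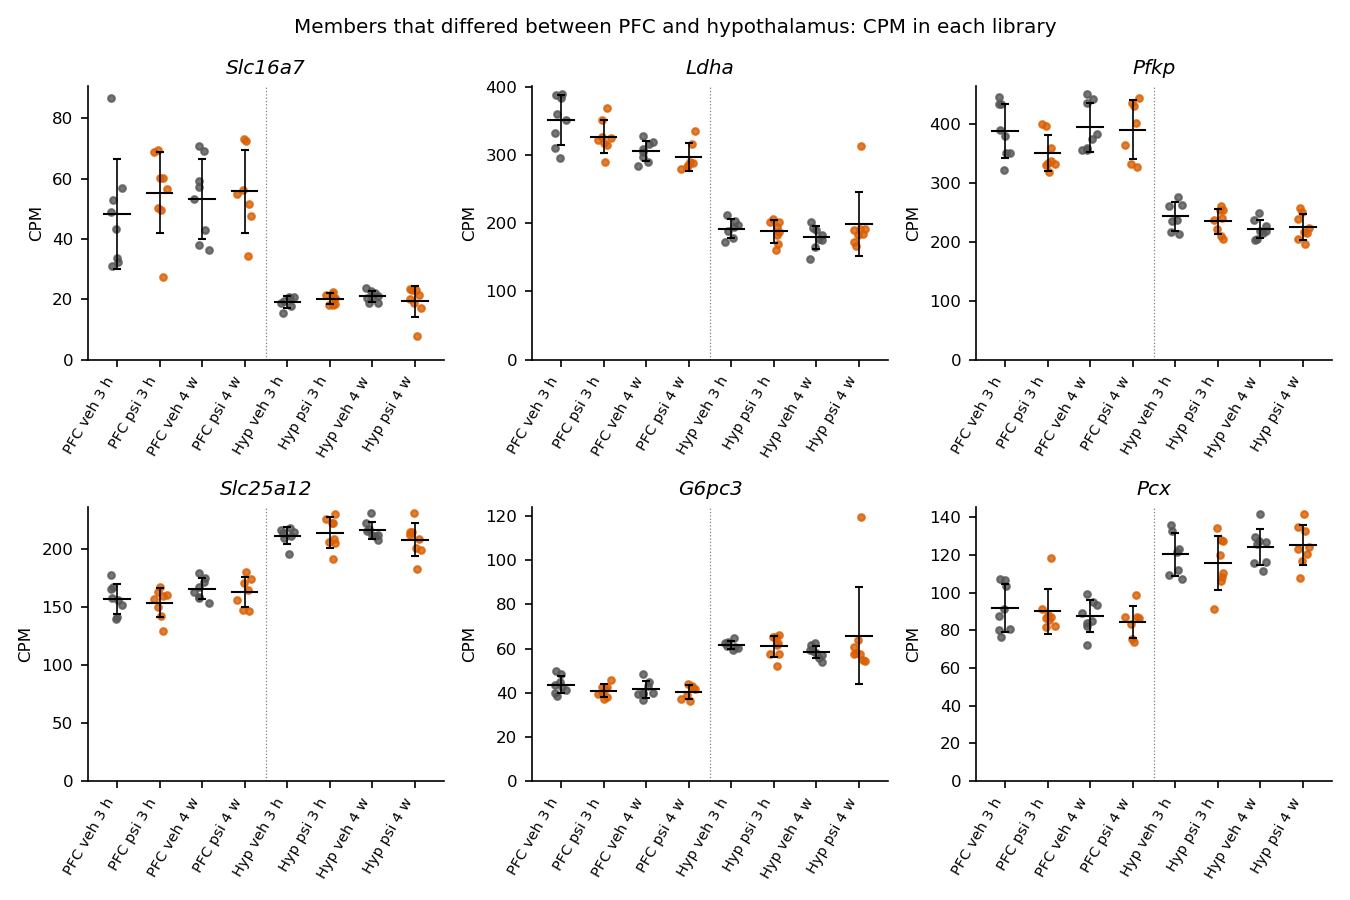
CPM (y axis) of 6 members in each library, by group (x axis; veh, vehicle; psi, psilocybin; h, hours; w, weeks), with the mean and SD of each group as bars. Slc16a7 and Pfkp lie higher and Slc25a12 and G6pc3 lower in every PFC library than in every hypothalamus library, and 1 hypothalamus library stands apart for Ldha (313 CPM) and G6pc3 (119.7 CPM).

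Of the 7 genes of the later steps of glycolysis, 4 were higher in the PFC and 1 lower, a share near the 76.2% of all rows called. Pgam2, the muscle phosphoglycerate mutase, had the largest log2 difference of these 7, 0.82 (SE 0.0847, edgeR adjusted p = 2.90e-13). It was a low gene, with 2.19 to 6.61 CPM in the PFC (median 4.18) and 1.45 to 5.86 CPM in the hypothalamus (median 2.16), and was higher in the PFC in 28 of 30 mice. Gapdh, glyceraldehyde-3-phosphate dehydrogenase (0.16, SE 0.0385), Eno2, the neuronal enolase (0.16, SE 0.0324), and Pgam1, the brain phosphoglycerate mutase (0.13, SE 0.0324), were also higher. The Pgam1 call was lost without the filter on low counts (adjusted p = 0.101). Pkm, pyruvate kinase, was lower by -0.10 (SE 0.0392, adjusted p = 0.0244), with medians of 1034 and 1102 CPM and overlapping ranges. Eno1 (0.10) and Pgk1 (0.01) did not pass.

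Both lactate dehydrogenase genes were higher in the PFC, as were 39.6% of all rows. Ldha, the subunit that predominates in glycolytic tissues (chr7:46841475-46855627, plus strand), ranged from 280 to 389 CPM in the PFC (median 317) and from 147 to 313 CPM in the hypothalamus (median 188). A single hypothalamus library, psilocybin replicate 5 at 4 weeks, reached into the PFC range, and the PFC was higher in 29 of 30 mice. The log2 difference was 0.76 (SE 0.0382, edgeR adjusted p = 1.44e-26). Ldhb was higher by 0.28 (SE 0.0519, adjusted p = 3.64e-06), with medians of 450 and 367 CPM.

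The 3 members grouped under gluconeogenesis, G6pc3, Pcx and Pck2, were all lower in the PFC, as were 36.5% of all rows. The direction within the role was not tested. G6pc3, the glucose-6-phosphatase found in most tissues (chr11:102189620-102194081, plus strand), ranged from 36.1 to 49.8 CPM in the PFC (median 41.5) and from 52.2 to 119.7 CPM in the hypothalamus (median 60.1), without overlap. Its log2 difference was -0.57 (SE 0.0450, edgeR adjusted p = 1.26e-17). Pcx, pyruvate carboxylase, the astrocytic enzyme that refills the citric acid cycle, had 72.1 to 118 CPM (median 86.8) against 91.3 to 142 CPM (median 123). Pcx was lower by -0.46 (SE 0.0362, adjusted p = 1.35e-17) and in 30 of 30 mice. Pck2, the mitochondrial phosphoenolpyruvate carboxykinase, was lower by -0.39 (SE 0.0477), with medians of 24.9 and 33.0 CPM.

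In the malate-aspartate shuttle 3 of 7 genes were called, all carriers and all lower in the PFC. Of all rows 76.2% were called and 36.5% were lower. The aspartate-glutamate carrier Slc25a12 (chr2:71271063-71367749, minus strand) ranged from 129 to 180 CPM in the PFC (median 160) and from 183 to 231 CPM in the hypothalamus (median 212), without overlap, and was lower in the PFC by -0.41 (SE 0.0232, edgeR adjusted p = 3.34e-24). Slc25a13 (chr6:6041218-6217118, minus strand) ranged from 1.36 to 5.80 CPM (median 2.12) against 4.54 to 23.0 CPM (median 5.97). Its log2 difference was -1.57 (SE 0.122, adjusted p = 5.76e-18), lower in the PFC in 30 of 30 mice, and it was -1.53 without the 5 libraries with liver and kidney genes. Slc25a11, the oxoglutarate-malate carrier, was lower by -0.23 (SE 0.0393). Mdh1 (0.04), Mdh2 (0.00), Got1 (0.00) and Got2 (-0.01), the malate dehydrogenases and aspartate aminotransferases of cytosol and mitochondrion, did not pass, with adjusted p from 0.285 to 0.950. Their 95% intervals lay between -0.11 and 0.11. Mdh1 passed as higher without the 2 libraries that stood apart (0.08, adjusted p = 0.00104), with the weighted procedure of the paper (0.07, adjusted p = 0.00105) and with an offset for gene length (0.11, adjusted p = 0.000497), as did Got1 with an offset for GC and length (0.06, adjusted p = 0.0403).

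Of the enzymes that make effectors, Pfkfb2 was higher in the PFC (0.31, SE 0.0541) and Pfkfb3 (-0.13, SE 0.0493) and Bpgm (-0.16, SE 0.0380) were lower, while Pfkfb4 (-0.05) did not pass. Pfkfb2, Pfkfb3 and Pfkfb4 make and degrade fructose 2,6-bisphosphate, an activator of phosphofructokinase, and Bpgm makes 2,3-bisphosphoglycerate. The Pfkfb3 call was lost without the 5 libraries with liver and kidney genes (adjusted p = 0.0545). Over the whole set, 4 rows (Pfkp, Slc16a7, G6pc3 and Slc25a12) had no overlap between the regions, as did 11.3% of all rows tested. In 4 genes (Hk1, Pfkp, Slc16a7 and Slc2a3) the PFC was higher in all 30 mice, as in 11.5% of all rows, and in 5 (G6pc3, Pcx, Slc16a1, Slc25a12 and Slc25a13) it was lower in all 30, as in 10.4% of all rows.

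Isoform choice was described by the ratio of 2 genes within a library, per length and with 0.5 added to each count, for 10 pairs. The regions were compared over the 30 mice with a two-sided permutation test of signs, and p-values were adjusted over the 10 pairs. A ratio within a library does not depend on the scaling of that library. The Ldha to Ldhb ratio was 0.282 to 0.393 in PFC libraries (median 0.329) and 0.172 to 0.288 in hypothalamus libraries (median 0.240). It was higher in the PFC in 30 of 30 mice, by 0.48 on the log2 scale. The ratio of Pfkp to Pfkm was higher by 0.57 (30 of 30 mice, medians 0.193 and 0.131) and that of Pfkl to Pfkm by 0.38 (29 of 30 mice, medians 0.207 and 0.156). Both show that Pfkm was a smaller share of phosphofructokinase transcripts in the PFC. The ratio of Slc25a12 to Slc25a13 was 11.5 to 66.8 in the PFC (median 38.7) and 4.52 to 26.2 in the hypothalamus (median 18.3), higher in the PFC by 1.04 in 28 of 30 mice. The ratio of Slc16a1 to Slc16a7 was 1.23 to 3.06 in the PFC (median 1.95) and 5.18 to 19.0 in the hypothalamus (median 7.00), lower in the PFC by -1.84 in 30 of 30 mice. For these 5 pairs the permutation p was 2e-05, the smallest that the resamples can give, and the adjusted p 4e-05. Aldoa to Aldoc (0.12 higher, adjusted p = 0.0547 in the permutation test), Eno1 to Eno2 (-0.05), Hk1 to Hk2 (-0.02), Got1 to Got2 (0.00) and Mdh1 to Mdh2 (0.03) did not pass.

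The course after vehicle was examined by comparing 4 weeks with 3 h in mice given saline. In the PFC, 3 members were lower at 4 weeks than at 3 h and 0 higher in edgeR's quasi-likelihood test, where 4.72% of all rows passed and 2.39% were lower. The median log2 difference of the 36 rows was -0.07, with 28 of them below 0, against 0.00 over all rows. Pfkfb3, the inducible producer of fructose 2,6-bisphosphate (chr2:11471433-11554077, minus strand), ranged from 49.1 to 67.3 CPM at 3 h (median 53.4) and from 31.0 to 49.9 CPM at 4 weeks (median 39.2). A single library at 4 weeks lay above the lowest library at 3 h. The log2 difference was -0.51 (SE 0.0972, adjusted p = 0.000493). Aldoc ranged from 1031 to 2026 CPM at 3 h (median 1588) and from 892 to 1539 CPM at 4 weeks (median 1253), with wide overlap, and fell by 0.34 (SE 0.0974, adjusted p = 0.0310). Slc2a3 ranged from 137 to 214 CPM at 3 h (median 183) and from 129 to 168 CPM at 4 weeks (median 152), a difference of -0.23 (SE 0.0691, adjusted p = 0.0432). Astrocyte markers (7 of 7 detected) summed to 5172 to 7932 CPM at 3 h (median 6672) and to 4763 to 7861 CPM at 4 weeks (median 6156). Of these markers 1 was lower (Gjb6, -0.62) and 0 higher, with a median log2 difference of -0.18, and their part in the Aldoc difference was not tested. Medians were also -0.26 over 6 microglial markers (1 lower) and -0.31 over 6 wound and immune genes (0 called). They were -0.06 over 7 oligodendrocyte markers, -0.03 over 6 neuronal markers and 0.76 over 7 striatal genes, with 0 called in each.

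Within the extraction pools, Pfkfb3 differed by -0.36 in pool C and -0.65 in pool D on the log2 CPM scale, Slc2a3 by -0.22 in each, and Aldoc by -0.45 and -0.14. The Pfkfb3 call held in every alternative run, with an adjusted p of at most 0.00285 when 1 library was left out. The other 2 calls were less secure. With the cage as a block, edgeR gave an adjusted p of 0.0560 for Aldoc and 0.0664 for Slc2a3, which left 1 member called. The count also fell to 1 without vehicle replicate 1 or 4 at 4 weeks or vehicle replicate 7 at 3 h, and the adjusted p reached 0.181 for Aldoc (without vehicle replicate 4 at 3 h) and 0.111 for Slc2a3 (without vehicle replicate 8 at 3 h). Without the 5 libraries with liver and kidney genes, of which vehicle replicates 6 and 8 at 4 weeks enter this comparison, Aldoc had an adjusted p of 0.0541 and 2 members were called, Pfkfb3 among them (adjusted p = 0.00839).

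**Figure D3:**
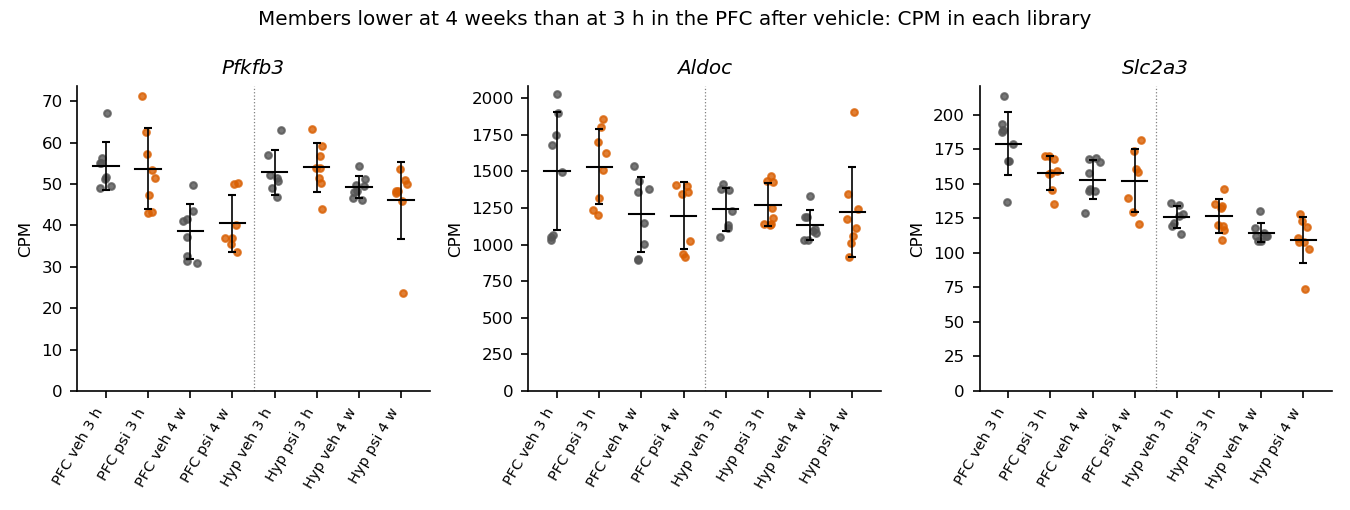
CPM (y axis) of the 3 members lower at 4 weeks than at 3 h in the PFC after vehicle, in each library by group (x axis; veh, vehicle; psi, psilocybin; h, hours; w, weeks), with mean and SD as bars. In the PFC, Pfkfb3 lies lower at 4 weeks after both treatments (medians 39.2 and 37.0 CPM) than at 3 h (53.4 and 52.4 CPM), and in the hypothalamus 1 psilocybin library at 4 weeks lies at 23.8 CPM.

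After psilocybin, the same comparison in the PFC gave 2 members lower at 4 weeks, where 5.96% of all rows passed and 2.70% were lower. Pfkfb3 ranged from 43.1 to 71.3 CPM at 3 h (median 52.4) and from 33.7 to 50.4 CPM at 4 weeks (median 37.0), a log2 difference of -0.40 (SE 0.101, edgeR adjusted p = 0.00996). Aldoc ranged from 1201 to 1860 CPM (median 1569) and from 914 to 1406 CPM (median 1343), a difference of -0.39 (SE 0.101, adjusted p = 0.0115). Of the 7 astrocyte markers 2 were lower at 4 weeks here (Gjb6, -0.81, and Aldh1l1, -0.35) and 0 higher, with a median log2 difference of -0.32. Their sum was 6020 to 9195 CPM at 3 h (median 6952) and 5154 to 7443 CPM at 4 weeks (median 6141), and their part in the Aldoc difference was not tested. Single markers of other lists were lower too, namely the microglial Tmem119 (-0.55, and -0.53 after vehicle), the oligodendrocyte gene Cldn11 (-0.49) and the immune gene Cd14 (-0.79), and the median differences were -0.32 over 6 microglial markers, -0.13 over 7 of oligodendrocytes and -0.57 over 6 wound and immune genes. Pfkfb3 and Aldoc were thus called after either treatment. The 2 comparisons share no library, but they share the fit and its estimate of the spread. They also share the cages, the extraction pools and the difference in age. The Aldoc call after psilocybin was lost without the extraction pool in the fit (adjusted p = 0.139). Within pools C and D, Pfkfb3 differed by -0.32 and -0.44 and Aldoc by -0.45 and -0.34. Pfkfb2, the heart form of the same enzyme family, was higher at 4 weeks by 0.34 and missed the threshold (adjusted p = 0.0507). Without psilocybin replicate 7 at 3 h and psilocybin replicate 5 of the hypothalamus, Pfkfb2 (0.31, adjusted p = 0.0225) and Pfkp (0.17, adjusted p = 0.0491) passed as higher at 4 weeks, beside Pfkfb3 and Aldoc as lower. Without the 5 libraries with liver and kidney genes 2 members were called.

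In the hypothalamus no member passed in either time comparison. After vehicle, edgeR called 0 of 36 where 0.685% of all rows passed, and 3 had an unadjusted p under 0.05, a share near the 8.09% of all rows. These were Pfkp (-0.14, SE 0.0598, adjusted p = 0.453), Pfkfb4 (0.16, SE 0.0766, adjusted p = 0.559) and Slc2a3 (-0.14, SE 0.0717, adjusted p = 0.613). Pfkfb3 in these libraries ranged from 46.8 to 63.0 CPM at 3 h (median 51.5) and from 46.1 to 54.4 CPM at 4 weeks (median 49.0). The difference between the regions in the change with time was -0.40 for Pfkfb3 and did not pass (adjusted p = 0.515), where 0.0369% of all rows passed, so a change particular to the PFC was not shown. After psilocybin 0 of 36 passed, where 1.16% of all rows did, and 5 had an unadjusted p under 0.05, as did 17.4% of all rows. Without the 5 libraries with liver and kidney genes 0 of 36 passed here too.

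Psilocybin was compared with vehicle in each region at each time. No member passed in any of the 4 comparisons with edgeR's quasi-likelihood test. In the PFC at 3 h 0 of 36 passed, where 0.0105% of all rows did. The log2 differences ran from -0.19 to 0.68, and 35 of the 36 were within 0.2 of 0. Of the rows, 30 were below 0 and the median was -0.07, against 52.0% of all rows below 0 and a median of -0.01. These counts share the 3 h vehicle libraries with the comparison of times after vehicle, in which 28 rows were lower at 4 weeks. The per-library score, the mean log2 CPM of the 36 rows minus its mean over the region, had a median of 0.06 in the PFC after vehicle at 3 h (-0.05 to 0.12), against -0.00 after psilocybin (-0.09 to 0.17), so the groups overlapped. Where the fit also carried an offset for GC and length, the median of the 36 was -0.04. Without psilocybin replicate 7 of this group and psilocybin replicate 5 of the hypothalamus at 4 weeks it was -0.11, and 18 of the 36 then had an unadjusted p under 0.05 with 0 called. The same held for 20% of all rows in that fit, against 4 of the 36 and 7.23% of all rows with all 62 libraries. Without the 5 libraries with liver and kidney genes, of which replicate 7 is one, the median was also -0.11, and 8 of the 36 and 14.3% of all rows had an unadjusted p under 0.05.

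**Figure D4:**
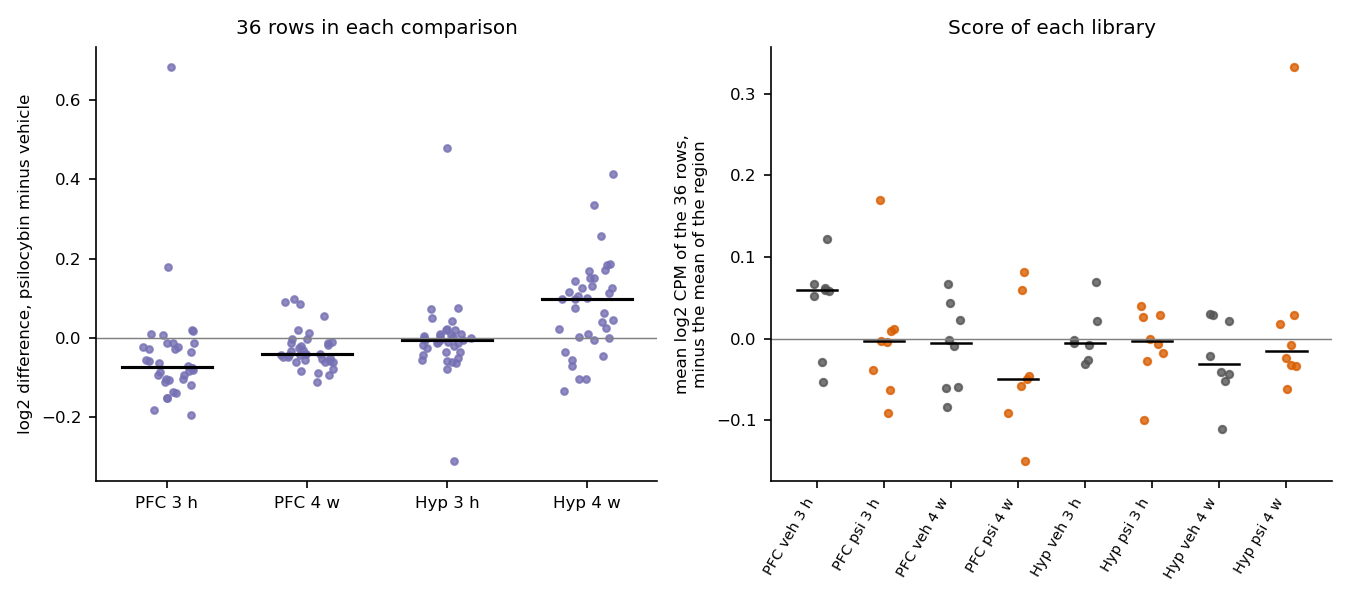
Left, log2 difference between psilocybin and vehicle (y axis) for each of the 36 rows in the 4 comparisons (x axis), with the median as a bar. Right, the score of each library by group (veh, vehicle; psi, psilocybin; h, hours; w, weeks), the mean log2 CPM of the 36 rows minus the mean of the region, with the group median as a bar. The medians at left are -0.07, -0.04, -0.01 and 0.10, and the 2 highest scores at right are 0.33 and 0.17.

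The members with the smallest p-values in the PFC at 3 h were Slc25a13, Slc2a3 and Pfkp. Slc2a3 ranged from 135 to 171 CPM after psilocybin (median 159) and from 137 to 214 CPM after vehicle (median 183), a log2 difference of -0.18 (SE 0.0691, edgeR adjusted p = 0.602). Pfkp ranged from 319 to 401 CPM (median 335) and from 321 to 446 CPM (median 385), a difference of -0.15 (SE 0.0577, adjusted p = 0.615). Pck2 was the fourth with an unadjusted p under 0.05 (-0.19, SE 0.0942, adjusted p = 0.687). The ranges of the groups overlapped for each of these genes. DESeq2 also called 0 members, while the procedure of the paper, with libraries weighted by quality and run here on all 62, called 5, namely Slc16a7 higher (0.40) and Eno1, Pck2, Gpi1 and Tpi1 lower. That procedure called 6.49% of all rows.

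In the PFC at 4 weeks 0 of 36 passed, as did 0% of all rows, and 0 had an unadjusted p under 0.05, against 2.4% of all rows. The median log2 difference was -0.04 (-0.01 without the 5 libraries with liver and kidney genes) and all 36 were within 0.2 of 0. Hk1 had the smallest p-value, with 344 to 452 CPM after psilocybin (median 389) and 375 to 456 CPM after vehicle (median 414), a difference of -0.08 (SE 0.0638, edgeR adjusted p = 1). In the hypothalamus at 3 h 0 of 36 passed, again with 0% of all rows, and the median was -0.01. Only Slc25a13 of the 36 had an unadjusted p under 0.05 there, as did 1.78% of all rows.

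In the hypothalamus at 4 weeks 0 of 36 and 0% of all rows passed. The median log2 difference of the 36 was 0.10, with 28 above 0, against 0.01 over all rows. It rested on psilocybin replicate 5. Mdh2, the mitochondrial malate dehydrogenase (chr5:135778480-135790391, plus strand), had 649 CPM in that library and 245 to 273 CPM in the other 7, against 218 to 272 CPM after vehicle. Mdh2 had the smallest p-value (0.26, SE 0.0998, edgeR adjusted p = 0.448), and Tpi1 and Ldha also had an unadjusted p under 0.05, as did 9.61% of all rows. Leaving out 1 library at a time moved its difference between 0.02 and 0.30. Without replicate 5 and replicate 7 of the PFC the median of the 36 was -0.00, with 16 above 0 and 20 below, so the direction was not kept. With the weighted procedure of the paper it was -0.01, with 12 above 0 and 24 below, and without the 5 libraries with liver and kidney genes 0.10, with 25 above 0. In replicate 5 the hypothalamic markers summed to 2767 CPM, the highest of the hypothalamus libraries, and Pfkfb3 (23.8 CPM), Slc16a7 (7.70 CPM) and Slc2a3 (74.0 CPM) were the lowest of their group, so it departed in both directions.

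Differences between the responses were tested as interactions. No member passed for PFC against hypothalamus at 3 h, or for 3 h against 4 weeks in the PFC or the hypothalamus, where 0% of all rows passed in each. An unadjusted p under 0.05 was found for 0, 1 and 1 members and for 2.78%, 3.08% and 5.27% of all rows, the members being Slc25a13 in the PFC (0.74) and Mdh2 in the hypothalamus (-0.31).

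Slc25a13 was the member with the largest log2 difference after psilocybin at 3 h in both regions, and its highest values lay in a few libraries with many reads of liver and kidney genes. In the PFC it ranged from 2.12 to 5.80 CPM after psilocybin (median 2.54, counts of 25 to 85) and from 1.37 to 2.51 CPM after vehicle (median 1.85, counts of 23 to 48). The difference was 0.68 (SE 0.247, edgeR adjusted p = 0.557), and 0.70 and 0.57 within pools C and D. In the hypothalamus at 3 h it ranged from 5.83 to 15.02 CPM after psilocybin (median 7.11) and from 4.69 to 7.30 CPM after vehicle (median 5.97), a difference of 0.48 (SE 0.235, adjusted p = 1). The ratio of Slc25a12 to Slc25a13 in the PFC at 3 h had a median of 30.5 after psilocybin (11.5 to 39.4) and of 42.3 after vehicle (35.8 to 57.6). It was lower after psilocybin by -0.66 on the log2 scale (exact two-sided permutation p = 0.000932, adjusted p = 0.00932 over the 10 pairs), and by -0.68 and -0.64 within the pools. The ratio was lower after psilocybin in 8 of 8 cages. With treatments swapped within cages as the block, the exact permutation p was 0.00781, the smallest that 8 cages allow. A single pair of 10 cannot have an adjusted p below 0.0781 in that test, so it cannot pass there whatever its values. No other pair passed in any of the psilocybin or vehicle time comparisons. In the hypothalamus at 3 h the difference of this pair was -0.41 (exact permutation p = 0.0236, adjusted p = 0.236).

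Citrin, the product of Slc25a13, is abundant in liver and kidney. Of 7 genes of these organs (Alb, Apoa1, Apoa2, Fgb, Umod, Slc34a1 and Kap), Umod, a defining kidney gene, was at 0 in every group and Kap at 0 in 3 groups. The summed CPM of the 7 ranged from 1.76 to 3170 in the hypothalamus after psilocybin at 3 h and from 1.91 to 4360 at 4 weeks. After vehicle it ranged from 2.06 to 138 at 3 h and from 2.18 to 321 at 4 weeks. In the PFC the ranges were 0.115 to 427 after psilocybin and 0.511 to 151 after vehicle at 3 h, and 0.403 to 18.1 and 0.433 to 1231 at 4 weeks. The sum was above 400 in 5 libraries. Psilocybin replicate 3 of the hypothalamus at 4 weeks (4360) had 23.0 CPM of Slc25a13, psilocybin replicate 5 of the hypothalamus at 3 h (3170) 15.02 CPM, and psilocybin replicate 7 of the PFC at 3 h (427) 5.80 CPM, each the highest of its group. Vehicle replicates 6 (664) and 8 (1231) of the PFC at 4 weeks had 4.33 and 3.33 CPM, ranks 1 and 2 of their group. The libraries with the next 3 sums (321, 151 and 138) ranked 5, 6 and 7 for Slc25a13 in their groups. In the other libraries Slc25a13 ranged from 1.36 to 3.60 CPM in 28 of the PFC and from 4.54 to 8.52 CPM in 29 of the hypothalamus. Without the 5 libraries, Slc25a13 differed after psilocybin at 3 h by 0.50 in the PFC (edgeR adjusted p = 0.144) and by 0.29 in the hypothalamus (adjusted p = 1), and the ratio in the PFC by -0.48 (exact permutation p = 0.00186, adjusted p = 0.0186).

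**Figure D5:**
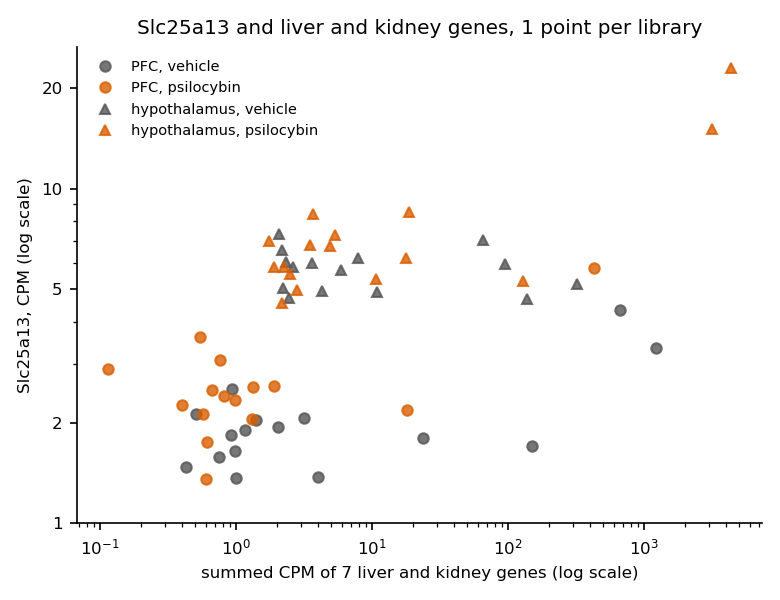
Slc25a13 (y axis, CPM, log scale) against the summed CPM of 7 liver and kidney genes (x axis, log scale), 1 point per library, by region and treatment. The libraries with the 2 highest sums, 4360 and 3170, also have the 2 highest Slc25a13 values, 23.0 and 15.02 CPM, while below a sum of 400 the values of each region stay between 1.36 and 3.60 CPM in the PFC and between 4.54 and 8.52 CPM in the hypothalamus.

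Other genes of glucose metabolism were read from a list of 55, of which 50 were tested. Between the regions 22 were higher and 22 lower in the PFC, with the same 76.2% of all rows called. Hkdc1, a hexokinase-like gene, differed by 3.85 on the log2 scale and Gpd1, the cytosolic glycerol-3-phosphate dehydrogenase of a parallel NADH shuttle, by 2.02. At 4 weeks after vehicle in the PFC, 3 were lower than at 3 h, where 2.39% of all rows were lower. These were Slc2a1, the glucose transporter GLUT1 of endothelium and astrocytes (-0.61, SE 0.1004, edgeR adjusted p = 4.68e-05), Pdk2, a kinase that inhibits pyruvate dehydrogenase (-0.20, adjusted p = 0.0465), and Pdp1, the phosphatase that activates it (-0.49, adjusted p = 0.0489). After psilocybin, Slc2a1 was lower at 4 weeks in the PFC by -0.69 (adjusted p = 8.76e-06) and in the hypothalamus by -0.41 (adjusted p = 0.0223). Hkdc1 was higher at 4 weeks in the hypothalamus after vehicle (0.83, adjusted p = 0.0462). In the 4 comparisons of psilocybin with vehicle and in the interactions 0 of the 50 passed.

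Some of these values carry uncertainty from shared sequence. Of the stretches of 52 bases in the transcripts, the read length, 53.8% in Pgk1, 36.1% in Pgam1, 25.7% in Eno1, 25% in Pkm, 24.5% in Gapdh, 20% in Ldhb, 16.4% in Got2 and 15.8% in Pfkfb2 also occur in another gene (in 210 other genes for Gapdh). Reads from them may be counted on neither or on the wrong gene. The members that overlap a tested gene on the opposite strand are Slc25a11, Mdh1, Pfkp, Pcx, Pfkfb2, Aldoa, Pfkm, Hk1 and Gapdh, and Pkm and Pfkm overlap a tested gene on the same strand. The libraries were stranded, but whether the counting used strand is not stated clearly, so reads of such pairs may not be told apart.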

How the data were processed

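RNA from 64 hypothalamus and PFC samples was sequenced as paired-end reads from stranded poly-A libraries. Per the methods and the submitters' processing notes, reads were converted with bcl2fastq 2.20.0, aligned to GRCm38 with STAR 2.7.2b and counted on GENCODE genes with featureCounts 1.6.2. The deposited table holds the authors' counts per gene as whole numbers. They were not normalized, filtered or pooled, and 0 columns belong to other samples. The gene positions, strands and lengths in it are the authors' annotation.

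Libraries with at least 1000000 counts were kept (62 of 64), and rows were filtered by group with filterByExpr (minimum count 10), which left 18971 of 55401. The counts were scaled by TMM and fitted in edgeR 4.0.16 (R 4.3.3) by robust quasi-likelihood with group and extraction pool, coded within region, as covariates and all groups in 1 fit. Rows with a Benjamini-Hochberg adjusted p under 0.05 were called. CPM are TMM-scaled, and fold changes are on the log2 scale. Isoform ratios were tested with exact permutations or, between regions, 100000 resamples of signs over mice. Gene symbols were matched for 55141 rows. Precision for genes with few reads is limited by depth.

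The members, the other lists of genes and the tests were chosen with earlier results of these data known. The genes given with full values are the 3 with the largest called difference between regions in each direction, those with the smallest p-values in the comparisons of psilocybin with vehicle (3 in the PFC at 3 h, 1 in each other) and of times after vehicle (3 each), 10 chosen for their roles (Hk1, Pfkp, Pfkl, Pfkm, Pkm, Gapdh, Pcx, Pck2, Slc25a12 and Slc25a13), and both genes of an isoform pair that passed. Other members are named by range or call, and an item of the list of other genes is not reported here. The fits were tested on simulated counts with known changes.

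The replicate number is the cage, per the labels, so same-numbered samples of a region are cage mates, and the samples of a mouse share treatment, time and number across regions. As a check of this pairing, deviations from the group means correlated by 0.0806 on average between cage mates in the PFC and by 0.0723 in the hypothalamus, and below 0 once the pool was removed (-0.0415 and -0.0236). Between the regions of a mouse the mean over 30 mice was 0.0854. In the fits of counts the cage and the mouse were therefore used as blocks in alternatives only. The isoform ratios of the regions were compared within mice. No pair of libraries in a group held the same counts (chi-square per degree of freedom at least 3.85 in 210 pairs).

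Alternatives were size factors of the DESeq2 type, tests without the filter or with a minimum of 10 counts in all libraries, a model lacking the extraction pool, all 64 libraries, only the groups compared, DESeq2 1.42.0, an offset for gene length, the procedure of the paper (voom with quality weights, limma 3.58.1, the mouse as a block, consensus correlation 0.0282; the paper also left out a further library, for wound-healing genes, which the sources used here do not name, so its inputs differ), and each library left out. Added after seeing the data were an offset for GC and length (splines with 5 degrees of freedom), the filter applied to the model, and fits without libraries that stood apart or without those with liver and kidney genes above 400 CPM. Promoters were taken from RefSeq, GRCm38.p6.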

Additional observations from a re-analysis of the deposited data

Results flagged for a closer look

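Each gene given with full values, and the score, was examined in each group for a library far from the others by Dixon's test at the 95% level. Of 176 such groups 26 held one, and chance gives about 1 in 20. No explanation was tested.

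Psilocybin replicate 5 of the hypothalamus at 4 weeks accounts for 14 of the 26. Its score was 0.333 on the log2 scale. It was the highest of 8 libraries for G6pc3 (119.7 CPM, the others 54.3 to 63.98), Gapdh (1542 CPM, the others 711 to 814), Ldha (313 CPM, the others 167 to 191), Ldhb (864 CPM, the others 302 to 422) and Mdh2 (649 CPM, the others 245 to 273). The same held for Pck2 (59.9 CPM, the others 28.5 to 35.99), Pfkl (216 CPM, the others 125 to 137), Pfkm (542 CPM, the others 408 to 444), Pgam2 (5.86 CPM, the others 1.87 to 2.80) and Pkm (1858 CPM, the others 1011 to 1127). It was the lowest for Pfkfb3 (23.8 CPM, the others 46.0 to 53.6), Slc16a7 (7.70 CPM, the others 17.2 to 23.3) and Slc2a3 (74.0 CPM, the others 103 to 128).

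Psilocybin replicate 7 of the PFC at 3 h accounts for 6. Its score was 0.170. It was the highest of 8 for Ldhb (574 CPM, the others 428 to 487), Mdh2 (306 CPM, the others 255 to 270), Pcx (118 CPM, the others 81.5 to 91.1) and Pfkm (581 CPM, the others 446 to 490), and the lowest for Slc16a7 (27.2 CPM, the others 49.6 to 69.3).

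For Slc25a13, psilocybin replicate 5 of the hypothalamus at 3 h (15.02 CPM, the others 5.83 to 8.52) and psilocybin replicate 3 of the hypothalamus at 4 weeks (23.0 CPM, the others 4.54 to 6.20) were the highest of their groups. The remaining values lie nearer to their groups. Hk1 had 353 CPM in psilocybin replicate 4 of the hypothalamus at 4 weeks (the others 290 to 311). Mdh2 had 218 CPM in vehicle replicate 3 of the hypothalamus at 4 weeks (the others 247 to 272). Pfkfb3 had 67.3 CPM in vehicle replicate 4 of the PFC at 3 h (the others 49.1 to 56.3). Slc25a12 had 196 CPM in vehicle replicate 6 of the hypothalamus at 3 h, the lowest of 7 (the others 210 to 218).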

How the results depend on the processing

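No call of a gene reversed its direction. The median of the 36 rows, which has no test, turned below 0 in both hypothalamus comparisons that hold psilocybin at 4 weeks, with the procedure of the paper and without the 2 libraries that stood apart. Against vehicle it was -0.01 and -0.00 in place of 0.10, and against 3 h -0.04 and -0.03 in place of 0.07. In the hypothalamus at 3 h it lay within 0.02 of 0 on either side. Of the counts of members or pairs called, 513 alternatives stayed within 1.5 times the value given and 17 did not. Single genes were followed for 41 results, those called and those named for the smallest p-values. Of their alternatives 2536 kept their side of the threshold and 33 lost a call. Members that gained a call outside these results, such as Mdh1 between the regions, are not in this tally. The causes were not tested, beyond what an alternative removes. Members lower at 4 weeks than at 3 h in the PFC after vehicle numbered 3. The number was 1 without the filter, without the extraction pool, with all 64 libraries and with only the groups compared. Of all rows 1.01%, 3.37%, 2.78% and 1.87% passed in these fits, in place of 4.72%. With the procedure of the paper 5 members were lower, where 5.98% of all rows passed, and with 1 library left out 1 to 4. After psilocybin in the PFC 2 members were called, both lower. The number was 4 (2 lower and 2 higher) with at least 10 counts in every library, with DESeq2, with the procedure of the paper and without the 2 libraries that stood apart. Of all rows 7.52%, 7.81%, 19.1% and 12.3% passed in these fits, in place of 5.96%. The number was 1 (lower) without the extraction pool, where 3.51% of all rows passed, and 2 to 3 with 1 library left out. The procedure of the paper called 5 members for psilocybin in the PFC at 3 h and 1 for time after psilocybin in the hypothalamus (Aldoc, -0.21), in place of 0. It called 6.49% and 3.29% of all rows in these comparisons. Between the regions 26 to 31 rows were called over the alternatives, where 42.9% to 81.5% of all rows passed, and 27 to 30 with 1 library left out.

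With the cage as a replicate block, members lower after vehicle in the PFC numbered 1, and 0 isoform pairs passed for psilocybin in the PFC at 3 h, in place of 1, in a test with 8 cages in which a single pair of 10 cannot pass. After psilocybin in the PFC 3 members passed over time in place of 2, and between the regions 27 passed with the cage or the mouse as the block. Of all rows 4.19% passed over time in the PFC after vehicle and 5.2% after psilocybin with the cage block. Between the regions 75.7% passed with the cage and 75.2% with the mouse. No other count of calls changed with the cage block. Depth limits Slc25a13 and Pgam2, which had as few as 17 and 13 counts in a library.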
